A study of Oikopleura dioica with 8 samples.

Results

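The set described here holds the *O. dioica* gene models whose total RNA was lower 30 min after release from growth arrest than during the arrest. A gene model was a member when it had at least 100 total RNA reads over the 4 total RNA libraries, and when the larger of its 2 release values was at most 0.55 times the smaller of its 2 stasis values, in reads per 1000000 counted reads of a library (RPM). The study's listed orthologs of human TOP mRNAs, which are growth-related mRNAs under mTOR control, were left out by the rule, and so were gene models with over 1% of the reads of a ribosome protected fragment (RPF) library. Of 17212 gene models, 14534 had enough total RNA reads and 150 of these (1.03%) were members. A further 2 met the RNA threshold but held too large a share of an RPF library, and 0 were left out as TOP orthologs. The members were thus chosen by their total RNA, whose values are given as a description. Both stasis values lay above both release values in all 150 because the rule demands it, where 46.6% of all gene models did so. The RPF libraries did not choose them, apart from that upper limit.

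*O. dioica* is a small planktonic tunicate that filter-feeds through a house secreted by its epithelium and normally completes its life cycle within days. Under crowding and scarce food it stops growing and postpones reproduction, and it resumes development when conditions improve. The amount of an mRNA in an animal is set by its synthesis and its decay, whereas RPF reads count the stretches of mRNA that lay inside ribosomes.

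Whole animals were sampled in 2 states, stasis and release. Stasis was day 7 of arrest, induced by keeping animals at their earlier high density with food given in the evening alone. Release was day 7 animals moved to normal density, with food present as the study states, and taken 30 min later. Density and feeding may thus both differ between the states, and their effects cannot be told apart. Each state had 2 biological replicates, each a pool of many animals, and each replicate gave 1 RPF library and, from a subset of its animals, 1 total RNA library, 8 in all. No strain, sex or genotype was given in the labels. The total RNA libraries held between 13041273 and 22839600 counted reads. RPF depth was 1488886 reads in stasis replicate 1, 261745 in stasis replicate 2, 1240592 in release replicate 1 and 308680 in release replicate 2. In these bulk samples a fall in the reads of a gene can mean fewer cells of a type or less RNA per cell, and these cannot be told apart. RPM are shares of a library, and gene lengths were not used here, so values are compared between libraries and not between genes.

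Among the 150 members, the mean stasis value ran from 2.27 to 3299 RPM with a median of 10.1, and the mean release value from 0.416 to 1411 RPM with a median of 4.23. Most members therefore had few reads, with 73 below 10 RPM in stasis, 56 between 10 and 50 and 21 above 50. The stasis mean exceeded the release mean by a median of 2.47-fold (quartiles 2.24 and 2.75, range 1.92 to 7.97). The rule sets the lower end of these falls, so their crowding near it is not read as a trait of the set. edgeR's fit over the 4 total RNA libraries gave the members a median log2 change of -1.16, beside -0.02 for all 14595 gene models in the fit. Scaled to library totals, the medians were -1.31 and -0.16, a shift of all gene models. With p adjusted by Benjamini-Hochberg and a limit of 0.05, 112 of the 150 passed in the lower direction, where 2.27% of all gene models did. Since this contrast chose the members, nothing is read from that count. Without either one of the release replicates, the count was 0.

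**Figure D1:**
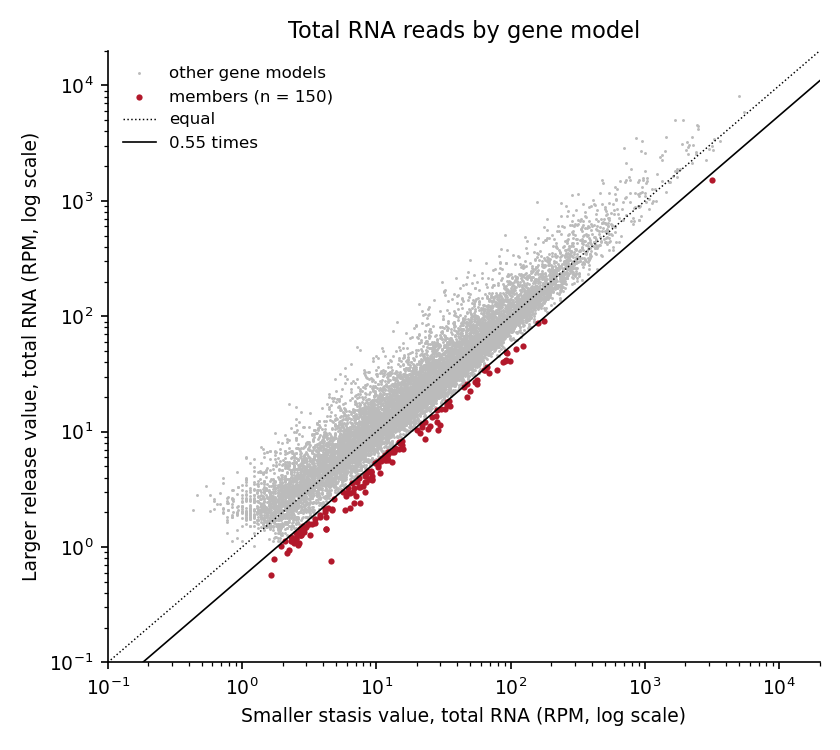
Each point is a gene model with at least 100 total RNA reads. The horizontal axis is the smaller of the 2 stasis values and the vertical axis the larger of the 2 release values (total RNA, RPM, log scales). The 150 members (red) lie on or below the solid line at 0.55 times, and most of them sit just under it.

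The edge of the set was not a gap. The members just inside it were GSOIDT00011752001 (ratio 0.5499), GSOIDT00002394001 (0.548), GSOIDT00013274001 (0.547) and GSOIDT00004187001 (0.547). Just outside lay GSOIDT00001315001 and GSOIDT00008538001 (both 0.5502), GSOIDT00008780001 (0.553) and GSOIDT00017029001 (0.553). With TMM-scaled values, 87 gene models met the same threshold, and all 87 were members.

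A single member, GSOIDT00012670001, carried about as many total RNA reads as all others together. Its total RNA was 3444 and 3155 RPM in stasis (replicates 1 and 2) and 1506 and 1317 RPM on release, means of 3299 ± 204 and 1411 ± 134 (SD, n = 2). Both release samples lay far below both stasis samples, and replicates differed little. The gene model had no annotation in the part of the study's annotation table used here, so its product is not named.

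The other unannotated members among the 10 with the most total RNA in stasis had the same shape. GSOIDT00009497001 had 177 and 202 RPM in stasis and 91.6 and 87.8 on release. GSOIDT00013277001 had 185 and 159 RPM in stasis and 86.6 and 71.4 on release. GSOIDT00000621001 had 123 and 222 RPM in stasis and 55.4 and 51.4 on release, and here the stasis replicates lay apart while the release replicates were close. GSOIDT00016934001 went from 109 and 119 RPM to 51.6 and 49.3, and GSOIDT00016081001 from 92.2 and 114 RPM to 37.5 and 41.6. GSOIDT00010854001, GSOIDT00004119001 and GSOIDT00003101001 had stasis means between 93.2 and 98.1 RPM and release means between 39.0 and 47.5 RPM. The remaining one of the 10, GSOIDT00015376001, is annotated and is described with the named members.

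The steepest fall by the ratio of the rule was in GSOIDT00008871001, an unannotated gene model with 4.59 and 4.83 RPM in stasis and 0.759 and 0.657 RPM on release, a ratio of 0.165. No other member came near it, since the next ratio was 0.320. That was GSOIDT00010488001, with 7.54 and 8.97 RPM in stasis and a mean of 2.41 on release. GSOIDT00013833001 stood out among the steep members for its reads. It had 28.8 and 48.9 RPM in stasis and 8.92 and 10.3 RPM on release, a 4.04-fold difference of the means. The others of the 10 lowest ratios had stasis means between 3.32 and 8.77 RPM, among them GSOIDT00017533001, GSOIDT00013248001, GSOIDT00012457001, GSOIDT00012234001 and GSOIDT00017146001.

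Replicates of a state mostly differed little beside the difference between the states. The rule favours this, and shares over all gene models are not given here, so it is not read as a trait of the set. Replicate 2 was higher than replicate 1 in 60 of the 150 members in stasis and in 71 on release, and the rule itself requires both replicates of each state to be apart from the other state. The stasis replicates lay over 2-fold apart in 4 members and the release replicates in 1. In all 4, stasis replicate 2 was the high one, as in GSOIDT00011951001 with 1.72 and 7.74 RPM. The 38 members that did not pass the edgeR threshold had fewer reads than the 112 that did (median 3.31 against 14.1 RPM in stasis).

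Names were available for few members. That part of the annotation table covers 1998 gene models, those most reduced in translational efficiency by the mTOR inhibitor Torin 1, and 34 members were in it, of which 16 were unnamed proteins and 18 had a protein name. The 18 include GSOIDT00004170001 ("protein") and GSOIDT00016729001 ("loc129881 protein"), whose names give no function. What follows thus describes 18 of 150 members. GSOIDT00004170001, GSOIDT00016729001 and the 132 members without a protein name could not be placed by function. All roles are those of the named proteins in other animals.

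Among the named members were several whose counterparts work in meiosis, sperm or cilia, a grouping made after the names were seen. SPO11 (GSOIDT00012361001) makes the DNA double-strand breaks that start meiotic recombination, and its total RNA was 13.3 and 10.7 RPM in stasis and 5.70 and 5.39 RPM on release. A gene model named testis-specific serine kinase 1 (GSOIDT00018142001), whose mammalian counterpart acts in late spermatids, had 6.39 and 9.05 RPM in stasis and 2.15 and 2.93 RPM on release. Another gene model of that name, GSOIDT00004881001, was no member, with 7.11 and 4.75 RPM in stasis and 5.82 and 6.22 RPM on release, and a further one, GSOIDT00015162001, had under 1 RPM in each library. The gene model named for CCDC151 (GSOIDT00011911001), in mammals a docking factor for outer dynein arms, had 6.82 and 10.1 RPM in stasis and 3.23 and 3.11 RPM on release. In each of the members both stasis samples lay above both release samples, as the rule demands.

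Enkurin (GSOIDT00015686001), a protein of mammalian sperm and motile cilia, had 1.65 and 4.98 RPM in stasis and 0.570 and 0.263 RPM on release. The stasis replicates were 3-fold apart, and the values rest on few reads. The meiosis-specific nuclear structural protein (GSOIDT00011425001), needed for sperm tail assembly in mice, had 2.51 and 3.14 RPM in stasis and 1.08 and 1.18 RPM on release. The coiled-coil protein CCDC37 (GSOIDT00013827001), a ciliary protein, had 13.6 and 16.3 RPM in stasis and 7.21 and 7.27 RPM on release.

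The keyword list of cilia and sperm tail genes, which catches only the testis-specific kinase of these, did not move as a whole. Of its 32 tested gene models, 1 was lower (that kinase) and 0 were higher in total RNA (edgeR adjusted p), with a median log2 change of -0.14 and 17 of 32 below 0. Its summed total RNA was 1773 and 2314 RPM in stasis and 1800 and 1697 RPM on release. Stasis replicate 2 was thus the highest for the list. It was also the highest for enkurin, the kinase, CCDC151, the meiosis-specific nuclear structural protein and CCDC37 above, but not for SPO11. Without stasis replicate 2, the log2 change in total RNA was -1.89 for enkurin (-2.90 with it) and -1.14 for the kinase (-1.44 with it). For CCDC151 the change was -0.94 (-1.27 with that library). The rule fixes this direction whichever stasis replicate is left out, so nothing is read from it.

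The named member with the most total RNA was GSOIDT00015376001, annotated as "heavy polypeptide skeletal adult", a wording used for myosin heavy chains, the motor proteins of muscle. It had 159 and 99.5 RPM in stasis and 38.9 and 41.2 RPM on release, with means of 129 ± 42.0 and 40.0 ± 1.63 (SD, n = 2). The muscle list, whose keywords do not catch this wording, had a median log2 change of 0.92 over 23 tested gene models, of which 4 lay below 0, 0 were lower and 1 was higher (6.8% of all gene models were higher). The list's summed total RNA was 2068 and 2196 RPM in stasis and 5664 and 2449 RPM on release, so its high value came from release replicate 1. Reads of near-identical myosin genes may be shared between gene models, so the split between them is uncertain.

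The remaining named members had varied roles. The protein phosphatase regulatory subunit B alpha (GSOIDT00010903001), which directs phosphatase 2A to its substrates, had 35.5 and 32.5 RPM in stasis and 13.4 and 15.8 RPM on release. Doublecortin (GSOIDT00003709001), a microtubule-binding protein, had 13.6 and 15.7 RPM in stasis and 6.65 and 6.66 RPM on release. An enzyme of very long chain fatty acid elongation (GSOIDT00007048001) had 8.25 and 12.4 RPM in stasis and 3.86 and 4.12 RPM on release. Chymotrypsin B (GSOIDT00013136001), a digestive protease, had 9.04 and 9.89 RPM in stasis and 4.49 and 3.90 RPM on release. The stasis and release samples were apart in all 4, again as the rule fixes.

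Other named members with few reads were a serine protease-like membrane protein (GSOIDT00010094001), a cyclic nucleotide-gated cation channel (GSOIDT00011951001), a winged helix transcription factor (GSOIDT00013736001), a pol protein of the kind mobile elements encode (GSOIDT00000710001), a pentapeptide repeat protein (GSOIDT00001335001), GSOIDT00016729001 and GSOIDT00004170001. Their stasis means lay between 2.44 and 4.87 RPM and their release means between 0.774 and 1.49 RPM. The channel and GSOIDT00004170001 had stasis replicates over 2-fold apart. The 16 unnamed proteins had stasis means between 2.37 and 24.4 RPM and release means between 0.891 and 11.3 RPM, with at most 30 RPF reads each.

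The named members could hardly be followed in RPF. Apart from the myosin-like GSOIDT00015376001 with 251 reads, the 17 other named members had between 0 and 7 RPF reads over the 4 libraries, and 4 had none, among them CCDC151 and the meiosis-specific nuclear structural protein.

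**Figure D2:**
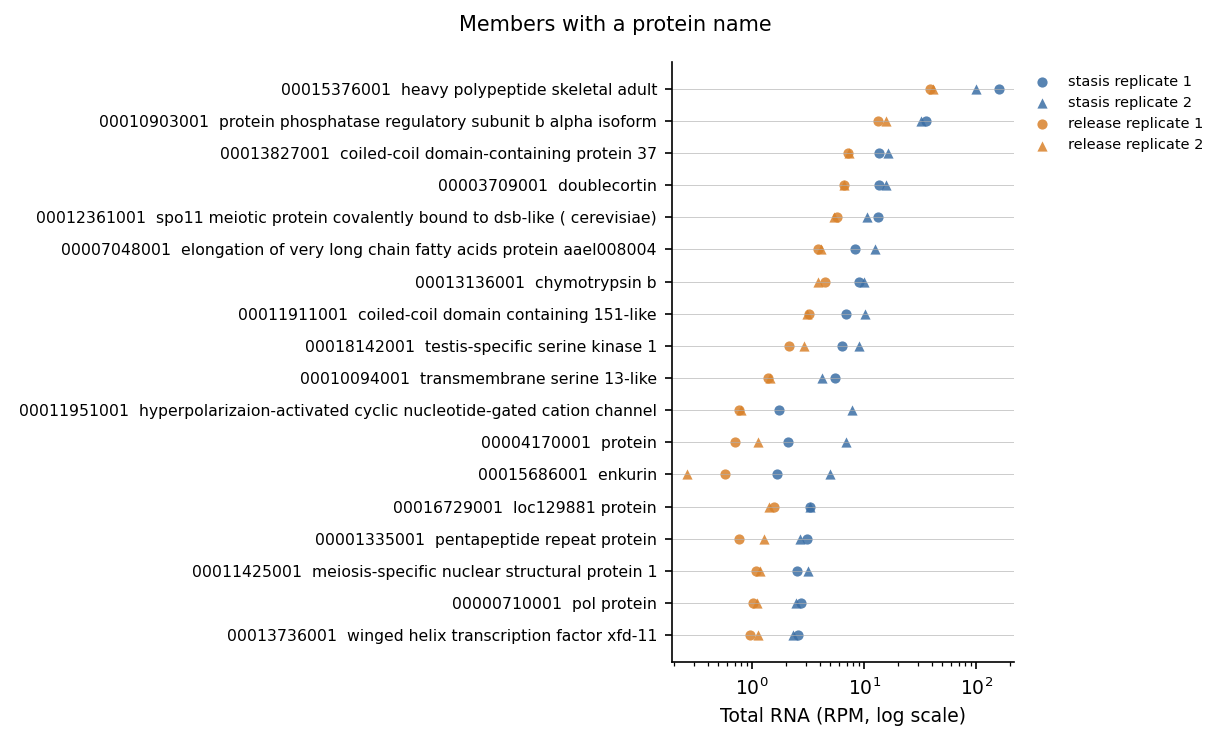
Total RNA (RPM, log scale) of the 18 members with a protein name, 1 row each, in stasis (blue) and on release (orange), with circles for replicate 1 and triangles for replicate 2. The orange points lie left of the blue ones in every row, as the rule fixes, and the blue points of the cation channel, GSOIDT00004170001 and enkurin are the widest apart.

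Other lists over the same annotated gene models gave few members and few falls. The digestive enzymes and proteases had 1 lower (chymotrypsin B) and 0 higher of 26 tested. Their median log2 change was 0.11, with 10 of the 26 below 0. Their summed total RNA was 8193 and 5293 RPM in stasis and 4923 and 5146 RPM on release. Cathepsin L (GSOIDT00015539001), which was no member, held much of that sum, with 5054 and 2254 RPM in stasis and 2060 and 2121 RPM on release. The house and coat proteins, which include the oikosins of the house, had 0 lower and 5 higher of 15, and 0 of the 15 lay below 0. The sulfation and glycan enzymes had 0 lower and 9 higher of 33. The kinases and phosphatases had 2 lower (both members) and 7 higher of 58, and the solute transport genes 1 lower and 3 higher of 49. The lower gene model of the last list was not the cation channel, which did not pass the threshold. The stress and chaperone genes had 0 in either direction of 17 and the transcription genes 0 lower and 1 higher of 25. The mobile elements, whose keywords do not catch the pol protein, had 0 in either direction of 9. Their median log2 change was -0.21, with 7 of the 9 below 0. Another gene model named pol protein, GSOIDT00004096001, was no member, with 49.7 and 59.7 RPM in stasis and 53.9 and 55.4 RPM on release. A further one, GSOIDT00007083001, had under 1 RPM in each library. Over all gene models in the fit, 2.27% were lower and 6.8% higher. The lists come from the annotated part alone, whose own shares are not given here, so this is a rough background for the list counts.

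Of the 34 members with an annotation, 5 (14.7%) were *trans*-spliced, beside 440 of all 1998 (22%). Transcripts present in oocytes made up 6 of the 34 (17.6%), beside 385 of the 1998 (19.3%). The table is a part of a longer one sorted by the response to Torin 1, so no test was run.

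Some members had identifiers that directly follow one another, in 9 pairs. The number to be had from as many gene models taken at random was not calculated, so nothing is read from the count. The pairs below are examples. GSOIDT00005409001 had 49.4 and 50.6 RPM in stasis and 22.4 and 21.0 RPM on release, and GSOIDT00005410001 had 24.2 and 24.8 RPM in stasis and 8.86 and 10.5 RPM on release. In GSOIDT00002236001 and GSOIDT00002237001, stasis replicate 1 was the higher one in both, with 50.7 and 35.3 RPM in the former and 20.9 and 14.7 RPM in the latter. No coordinates were used here, so whether such pairs are neighbours, or pieces of 1 gene, is not known.

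The RPF libraries asked whether ribosome protected reads fell with the RNA. Summed over the members, no such fall was seen on library totals. Their total RNA was 0.700% and 0.656% of the library in stasis and 0.297% and 0.273% on release. Their RPF reads were 0.672% and 0.370% of the library in stasis and 0.687% and 0.3875% on release.

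The RNA shares of the states were far apart, as the rule fixes. Choice on these same libraries favours a large RNA fall, so nothing is read from its contrast with RPF. The RPF shares followed the replicate number and overlapped between the states. The 95% Wilson intervals, which cover counting error alone, were 0.659% to 0.686% and 0.348% to 0.394% in stasis and 0.673% to 0.702% and 0.366% to 0.410% on release. On TMM-scaled library sizes the RPF shares were 0.605% and 0.466% in stasis and 0.583% and 0.406% on release, so that the direction turned while the states still overlapped.

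GSOIDT00012670001 held most of these RPF reads, 14602 in all. Without it, the other 149 members made up 0.178% and 0.236% of the stasis RPF libraries and 0.181% and 0.189% of the release RPF libraries. Their total RNA was 0.356% and 0.340% of the library in stasis and 0.146% and 0.141% on release. The release mean of the RPF share was 1.03 times the stasis mean over all members, 0.891 times without that gene model and 0.767 times when TMM sizes were used as well.

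**Figure D3:**
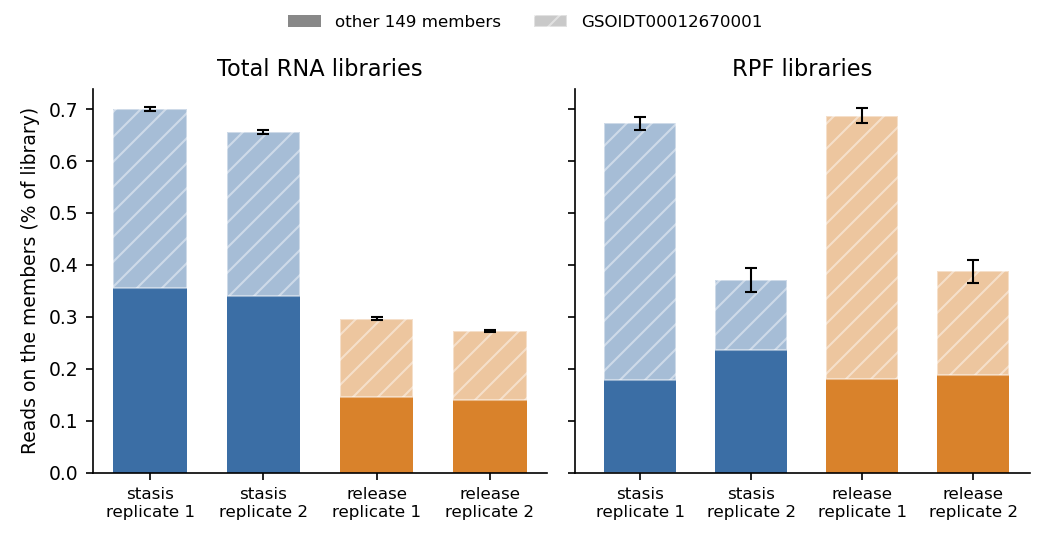
Reads on the 150 members as a percent of each library, in the 4 total RNA libraries (left) and the 4 RPF libraries (right), in stasis (blue) and on release (orange). The hatched part is GSOIDT00012670001 and the solid part the other 149 members. Bars of the total RNA fall from 0.700% and 0.656% to 0.297% and 0.273%, as the rule fixes, while the RPF bars differ by replicate. Error bars are 95% Wilson intervals of the whole bar.

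Single members were tested in the fit over all gene models. edgeR's quasi-likelihood test of the 4 RPF libraries called 0 of the 150 members lower and 0 higher after adjustment over all 14595 gene models, in which 0.00685% were lower and 0% higher. At an unadjusted p under 0.05, 2 members were lower (0.74% of all gene models) and 1 was higher (0.363%), and DESeq2 gave 0 in either direction with and without adjustment. The median log2 change in RPF was 0.00 for the members and 0.03 for all gene models. The 3 members below the unadjusted threshold, named after their values were seen, had few reads. In stasis GSOIDT00010488001 had 1 and 4 reads, and 0 in both release libraries. GSOIDT00008769001 went from 19 and 19 reads to 14 and 5, and GSOIDT00006523001 from 0 in both stasis libraries to 7 and 2.

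Depth limits what the RPF test could show. Of the members, 19 had no RPF read, 98 had between 1 and 19 and 33 had at least 20 over the 4 libraries, and 10 had at least 10 in each library. A library count of 0 allows up to 3 reads, which is 2.02 and 11.5 RPM in the stasis RPF libraries and 2.42 and 9.72 RPM on release. The members' total RNA in stasis had a median of 10.1 RPM. That is a share of an unlike library and does not give the RPF value to expect. A fall of the size seen in RNA was not detectable in RPF for most of the set.

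For GSOIDT00012670001, RPF counts were 7359 and 350 in the stasis replicates and 6279 and 614 in those of release, or 4943 and 1337 RPM in stasis and 5061 and 1989 RPM on release. On library totals the release value was above the stasis value within each replicate number, but the replicates lay much further apart than the states. The log2 change in RPF was 0.06 (standard error 0.84, edgeR adjusted p = 1), beside -1.08 (standard error 0.18) in total RNA. The RPF value is uncertain enough to hold a fall of that size within 2 standard errors.

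Other members with many RPF reads likewise overlapped between the states. GSOIDT00013277001 had 227 and 95.5 RPM of RPF in stasis and 206 and 123 RPM on release (log2 change -0.11, standard error 0.62, edgeR adjusted p = 1). GSOIDT00000621001 had 181 and 229 RPM in stasis and 184 and 240 RPM on release (log2 change -0.14, standard error 0.62, edgeR adjusted p = 1). In the latter, RPF values in RPM were close between the states within each replicate number while its total RNA went from 123 and 222 to 55.4 and 51.4 RPM. GSOIDT00009186001 had 185 and 42.0 RPM of RPF in stasis and 141 and 168 RPM on release (log2 change 0.37, standard error 0.63, edgeR adjusted p = 1).

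Lower fitted RPF values were seen in a few of these members. GSOIDT00013478001 had 186 and 72.6 RPM of RPF in stasis and 73.4 and 58.3 RPM on release (log2 change -1.09, standard error 0.65, edgeR adjusted p = 1), with release replicate 1 just above stasis replicate 2. With TMM scaling both its stasis values (167 and 91.3) lay above both release values (62.2 and 61.1), and its log2 change stayed below 0 without any one library (-1.45 to -0.56). GSOIDT00013833001 had 47.7 and 1047 RPM in stasis and 108 and 518 RPM on release, a split by replicate number that exceeds any between the states (log2 change -1.10, standard error 0.66, edgeR adjusted p = 1). Without stasis replicate 2 its log2 change was 2.85. The myosin-like GSOIDT00015376001 had 55.1 and 222 RPM in stasis and 71.7 and 71.3 RPM on release, with the release values between the stasis ones.

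The other members among the 12 with the most RPF reads had between 210 and 263 RPF reads over the 4 libraries. GSOIDT00006767001 had 65.1 and 72.6 RPM of RPF in stasis and 95.1 and 93.9 RPM on release, so both release values were the higher ones on library totals. With TMM scaling (58.6 and 91.3 in stasis, 80.6 and 98.5 on release) the states overlapped. Its total RNA was 57.9 and 46.9 RPM in stasis and 19.9 and 15.2 RPM on release. GSOIDT00009497001, GSOIDT00004119001, GSOIDT00001018001 and GSOIDT00004137001 overlapped between the states on library totals, with RPF values between 3.24 and 106 RPM, and with TMM scaling all but GSOIDT00004119001 did. The shallow replicate 2 libraries gave GSOIDT00004137001 a single read in stasis and GSOIDT00001018001 a single read on release.

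**Figure D4:**
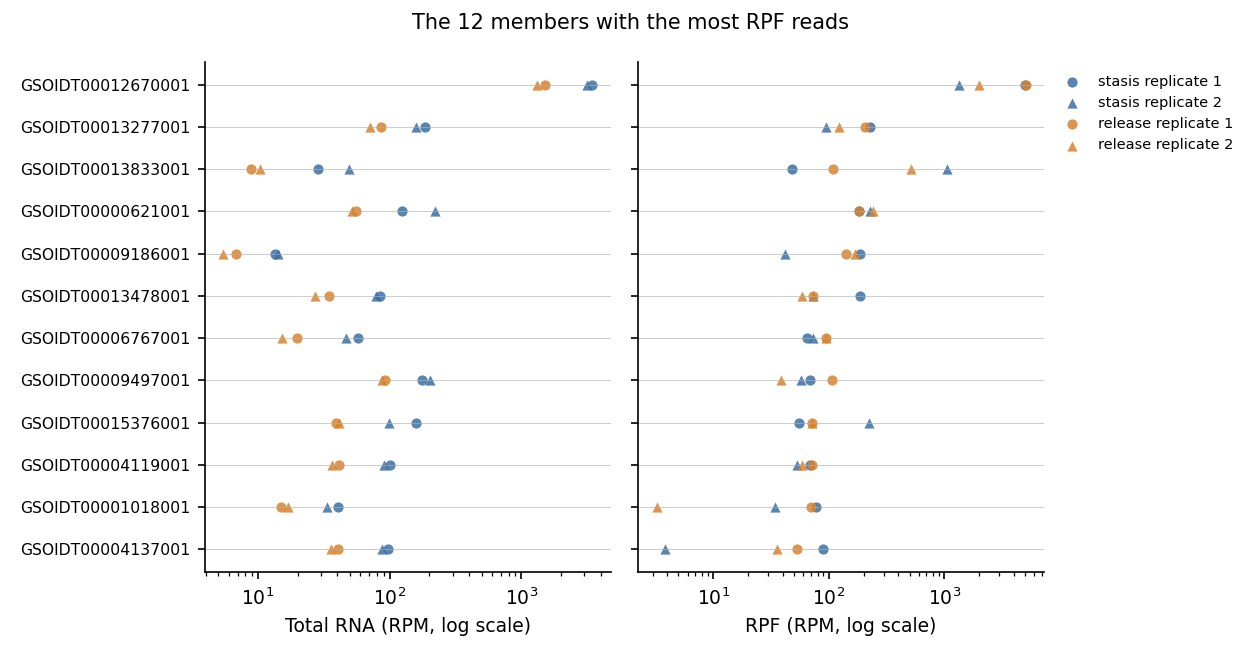
Total RNA (left) and RPF (right) in RPM on log scales for the 12 members with the most RPF reads, 1 row each, in stasis (blue) and on release (orange), with circles for replicate 1 and triangles for replicate 2. The colours are apart on the left, as the rule fixes, and interleave on the right in all rows but GSOIDT00006767001, where both release values are higher on these library totals but not with TMM scaling.

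Over all 150 members, both stasis RPF values lay above both release values in 5 members (7.5% of all gene models) and below both in 17 (13.9% of all gene models). The 5 make up 3.3% and the 17 make up 11.3% of the members, neither above its background. Among the 33 members with at least 20 RPF reads the counts were 0 and 3, where 7.63% and 14.7% of the 9445 gene models with as many reads did so, and 30 overlapped. With TMM scaling the counts were 3 (11.6% of the 9445) and 2 (13.2%), and 28 overlapped. The log2 change in RPF of these 33 had a median of -0.10 (quartiles -0.25 and 0.23, range -1.87 to 1.27), with 21 below 0 and 12 above. The 9445 gene models had a median of 0.04 (quartiles -0.41 and 0.43). The total RNA change of the same 33 had a median of -1.12. The RPF change was the higher of the 2 in 32 of the 33, beside 48.4% of the 9445, a count that the choice by low RNA change favours and from which nothing is read.

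**Figure D5:**
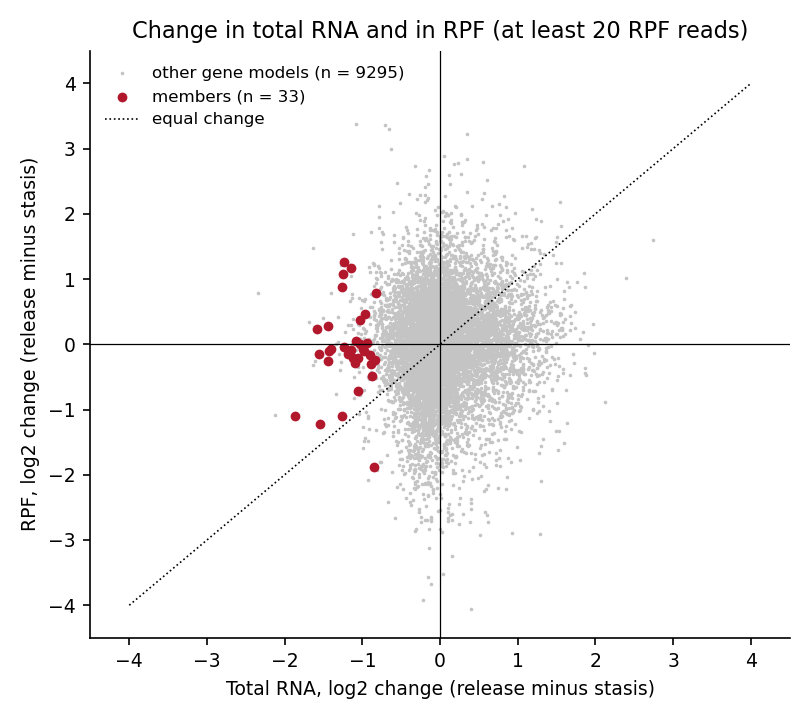
Log2 change on release in total RNA (horizontal) and in RPF (vertical), from edgeR's fits, for gene models with at least 20 RPF reads over the 4 RPF libraries. The 33 members (red) lie left of 0 by the rule and spread around 0 on the vertical axis (median -0.10), among the other gene models (grey), and 1 lies below the dotted line of equal change.

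Translational efficiency (TE), the RPF value over the total RNA value, contains the RNA that chose the members and was therefore not tested. It could be calculated for the 94 members with RPF reads in both states. Their median log2 change in TE was 1.405, with 85 of 94 above 0, beside a median of 0.29 and 62.3% above 0 for 13343 gene models. From the replicate 1 libraries alone the median was 1.57 (87 members), beside 0.23 for 13110 gene models. From the replicate 2 libraries alone it was 1.17 (32 members), beside 0.28 for 7723 gene models. The RNA of both replicates chose the members, so nothing is read from their likeness. With TMM scaling within each assay it was 1.10, beside 0.02 for all gene models. For GSOIDT00012670001 the log2 change in TE was 1.39, for GSOIDT00000621001 1.74 and for GSOIDT00006767001 2.04, whereas GSOIDT00013478001 had 0.43 and GSOIDT00015376001 had 0.74.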

How the data were processed

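Read counts per protein-coding gene model were deposited by the authors without normalization or a filter. They had clipped adapters, removed reads on rRNA and tRNA with Bowtie2 (2.1.0 in the submitters' processing notes), mapped the rest with TopHat2 (2.0.13) guided by Genoscope gene models and counted with featureCounts of Rsubread. Build, strandedness and handling of multiply mapping reads: not given in the sources used here. Near-identical or overlapping genes may therefore share reads. The labels name RNAqueous and the methods RNEasy for the total RNA. All 8 columns were matched to samples by title, and 0 were left unmatched.

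Members were found on RPM of library totals. The members and lists were chosen with earlier results of these data known. Release was compared with stasis within each assay by edgeR 4.0.16 (TMM, quasi-likelihood, R 4.3.3) over 14595 gene models whose reads summed over the 8 libraries reached 100. P-values were adjusted by Benjamini-Hochberg (limit 0.05), and a standard error was calculated by dividing the log2 change by the root of F. The scripts were tested on simulated data. TE was the ratio of mean RPM. Alternatives were library totals, with and without the 7 gene models over 1% of an RPF library, DESeq2 1.42.0, other filters, a replicate block and each replicate left out. The genes named were the 10 members with the most total RNA in stasis, the 10 lowest ratios, the 12 with the most RPF reads, all 18 with a protein name, any past the RPF threshold (0) and 4 on each side of the rule's edge. Names come from the first 1998 gene models of the study's annotation table, lists from keywords in them. The identifiers were looked for in the RefSeq gene table of OKI2018_I68_1.0 and 0 matched, so no coordinates or sequences are given. Replicates are biological per the labels, and the total RNA and RPF libraries of a replicate come from 1 sample of animals, so they are not fully independent.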

Additional observations from a re-analysis of the deposited data

How the results depend on the processing

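The total RNA count of 112 members past the threshold in the lower direction was between 113 and 133 under library totals, DESeq2 and the other filters, and between 0 and 138 with a replicate left out. It was 0 without release replicate 1 or 2 (137 and 135 at an unadjusted p under 0.05) and 138 without either stasis replicate. The threshold of the rule was met by 87 gene models with TMM scaling, and 68 members had at least 500 total RNA reads. In RPF the count in the lower direction was 0 under library totals, DESeq2, the other filters and a replicate block. Of the 150 members, 131 were tested in RPF without a filter and 10 with at least 10 reads in each library. The median RPF change of the members without stasis replicate 1 was 0.84, beside 0.69 for all gene models. Scaled to library totals, the RPF log2 change of GSOIDT00013277001 was 0.0178 and that of GSOIDT00000621001 was 0.0453, against lower values with TMM. With a replicate left out, the RPF change ran from -0.56 to 0.92 for GSOIDT00012670001, from -0.43 to 0.35 for GSOIDT00013277001, from -2.80 to 2.85 for GSOIDT00013833001, from -0.52 to 0.29 for GSOIDT00000621001, from -0.20 to 1.46 for GSOIDT00009186001 and from -1.45 to -0.56 for GSOIDT00013478001. The median TE change was 1.10 with TMM scaling. The RPF share on release over stasis, 1.03 for all members, was 0.924 with TMM scaling, 0.891 without GSOIDT00012670001 and 0.767 with both, and TMM scaling gave 3 members with both stasis RPF values above both release values in place of 0, alternatives chosen after seeing the data. The cause was not tested.

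With a replicate block, 114 members were past the total RNA threshold and 0 past the RPF threshold. The deviations of same-numbered samples correlated with r = 0.20 in total RNA and 0.17 in RPF across genes, but with 2 pairs and no label that ties the numbers, they were not taken as pairs. RPF depth, 261745 reads in the shallowest library, limits what can be said of single members.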
